A study of Mus musculus with 6 samples.

Results

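The apelin and adrenomedullin genes are 7 genes, those of the peptide apelin and its receptor (Apln, Aplnr), of the peptide adrenomedullin and its receptor (Adm, Calcrl), and of the 3 receptor activity-modifying proteins (Ramp1, Ramp2, Ramp3). They were found by symbol in the platform table of the arrays. Probe sets paired with 1 gene only were used, which gave 13 probe sets for all 7 genes, of 45037 probe sets and 18193 genes measured. A further 2 probe sets are shared by Ramp2 and its neighbour Vps25 and were left aside. Those lay between 2.39 and 2.71 on the log2 scale on all 6 arrays.

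The arrays hold endothelial RNA. The cells were sorted from LN of C57BL/6 mice at 6 weeks of age, for which no further allele or treatment is named. Inguinal, brachial, axillary, cervical and mesenteric LN were pooled, so skin-draining and gut-draining nodes cannot be told apart. 3 arrays come from double-positive cells and 3 from CD31+ cells, and p-values measure the spread between these arrays of pooled animals. The design text of the series calls the samples paired. The pairs enter only the fits with a replicate block, which are given as alternatives. The cell type word of each label contradicts its gate word: the CD31+ arrays are also labelled LEC and the double-positive arrays BEC, whereas the study sorted LEC as gp38+ CD31+ and BEC as gp38- CD31+. Groups are named here by the gate word, which the endothelial markers given below follow. Each difference is the mean log2 value of the double-positive arrays minus that of the CD31+ arrays, and with the cell type word it would keep its size and take the opposite sign.

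Apelin is a secreted peptide that acts through APJ, the G protein-coupled receptor encoded by Aplnr. In growing blood vessels Apln is known from sprouting tip cells and Aplnr from veins and capillaries. Adrenomedullin acts through the calcitonin receptor-like receptor encoded by Calcrl, which needs a RAMP as a partner: with RAMP2 or RAMP3 it is a receptor of adrenomedullin, and with RAMP1 a receptor of CGRP. Mice that lack Adm, Calcrl or Ramp2 die as embryos with oedema, and adrenomedullin is known to promote growth of lymphatic vessels.

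Of 9 lymphatic endothelial markers 6 were called higher and 0 lower in the double-positive arrays (limma, 5% FDR, as below), and of 11 blood endothelial markers 0 were higher and 5 lower. In that test 1.06% of all genes were called higher and 0.225% lower. Adding up the linear values of the lymphatic markers gave a log2 sum of 12.66 to 12.92 in the double-positive arrays and 7.97 to 8.61 in the CD31+ arrays. For the blood endothelial markers it was 10.99 to 11.39 and 12.001 to 12.63. Pdpn, the gene of the gate marker gp38, lay at 7.64 in the double-positive and 3.58 in the CD31+ arrays (difference 4.07, limma adjusted p = 0.0428). Lyve1, a hyaluronan receptor of lymphatic vessels, differed by 5.32, and Mmrn1, a matrix protein gene of lymphatic endothelium, by 7.48. Prox1, another gene of the lymphatic list, differed by 0.07 at its brightest probe set and by 3.7 at a dimmer one, and neither was called. Nrp1, a VEGF co-receptor, differed by -4.34, while Plvap, a gene of fenestrated blood vessels and LN sinuses, lay at 11.03 and 11.26. Kdr, of the blood endothelial list, differed by 0.65 and was not called. The scale of the arrays also differed. Among the 5764 probe sets that averaged 5 or more over the arrays, termed bright here, the median was 7.07 to 7.31 in the double-positive arrays and 6.16 to 6.66 in the CD31+ arrays, and their median difference was 0.75, the shift of a typical bright probe set. The hybridization controls had medians of 9.25 to 10.4 and of 10.9 to 11.4, and the Actb control probe sets at the 3′ end exceeded those at the 5′ end by 7.58 to 7.83 and by 6.07 to 7.38. The part of these array values in the results was not tested. The lowest value of the table is 2.39, and 37.4% of all probe sets lay within 0.1 of it on every array.

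At their brightest probe sets Adm and Calcrl, a ligand and its receptor, were both higher on all double-positive arrays, as given below. Of all genes 16.9% had this order, and neither Adm nor Calcrl was called over all probe sets. The other probe sets of both genes were dim, and their groups overlapped. Of the 7 genes, 5 had a promoter window in the set of RefSeq windows used here (GRCm38.p6), which held none for Aplnr or Ramp2. Those of Adm and Calcrl are shown, since both genes shared this order, as the 250 bases before the start of each gene, on its own strand. The window of Adm lies at chr7:110627407-110627656 (+) and that of Calcrl at chr2:84425267-84425516 (-). Capitals mark matches on either strand to GGGCGG (GC box), AGGAAG (ETS-type core), TATAA (TATA core) or ACGTG (hypoxia response core), motifs chosen after the values were seen. In Adm the TATAA and TTATA matches overlap.
Adm: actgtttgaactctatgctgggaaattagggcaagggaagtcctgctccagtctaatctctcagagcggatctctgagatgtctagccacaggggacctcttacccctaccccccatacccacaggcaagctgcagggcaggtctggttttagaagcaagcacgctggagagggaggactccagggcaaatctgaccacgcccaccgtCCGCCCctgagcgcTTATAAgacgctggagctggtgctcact
Calcrl: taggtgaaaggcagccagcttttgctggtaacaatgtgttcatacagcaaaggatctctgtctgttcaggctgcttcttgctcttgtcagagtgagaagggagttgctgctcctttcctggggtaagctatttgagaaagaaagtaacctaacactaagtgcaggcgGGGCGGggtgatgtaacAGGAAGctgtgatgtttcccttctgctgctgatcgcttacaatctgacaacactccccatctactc

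Both windows hold a GC box, which 32.7% of all 32851 RefSeq promoter windows of this length hold too. The windows of Apln and Ramp3 also hold a GC box and an ETS-type core, while that of Ramp1 holds none of the motifs. A GC box was thus not particular to Adm and Calcrl. In Adm it reads CCGCCC, from 42 to 37 bases before the start, and in Calcrl GGGCGG, from 83 to 78 bases before it. The TATA core of Adm begins 27 bases before the start on its own strand (TATAA). Its match on the opposite strand (TTATA) begins 28 bases before the start, and 22.8% of windows hold that core. The ETS-type core of Calcrl begins 66 bases before the start, and 29.5% of windows hold it. The ACGTG letters, which 16.6% of windows hold, did not occur in either window. A match of so few letters is a description of the sequence and not a binding site.

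Aplnr separated the groups most widely. At its brighter probe set (1438651_a_at) the double-positive arrays had log2 values of 5.94, 4.36 and 5.87 in replicates 1, 2 and 3, and the CD31+ arrays had 11.47, 10.72 and 11.15. The groups did not overlap, and double-positive replicate 2 lay below its group. The means were 5.39 ± 0.894 and 11.11 ± 0.372 (SD, n = 3 arrays each), a log2 difference of -5.72 with a standard error (SE) of 0.536 and a 95% confidence interval of -7.16 to -4.28, or 52.9-fold on the linear scale. This was the most negative difference of all 45037 probe sets. Aplnr was the 1 gene of the 7 that limma called at 5% FDR (limma adjusted p = 0.0476), in a test that called 1.29% of all genes, 1.06% as higher and 0.225% as lower.

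The size of the Aplnr difference held while the call moved. Under the replicate block its adjusted p was 0.179 in limma, in a fit that called 0 of all genes lower. Without double-positive replicate 2 the difference was -5.21 (limma adjusted p = 0.0494). Leaving out any other array lost the call: the adjusted p from limma was 0.16 without double-positive replicate 1, 0.168 without double-positive replicate 3, and 0.149, 0.127 and 0.155 without CD31+ replicate 1, 2 and 3. Restricting the test to the 6088 brighter probe sets, those at a log2 of 5 or more on 3 or more arrays, gave an adjusted p of 6.11e-05 from limma. In that test 40.4% of the 4213 genes kept were called. With the replicate block added to it the adjusted p was 3.2e-07 in limma, and 54.5% of the genes kept were called.

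The second probe set of Aplnr (1423037_at) was dim and gave the same order of groups. The double-positive arrays had 3.35, 3.00 and 3.26, and the CD31+ arrays had 4.01, 4.00 and 4.32. Here too the groups did not overlap. The difference was -0.91 (SE 0.143, limma adjusted p = 0.121), so the 2 probe sets differ widely in the size of the change. As the blood endothelial markers did, markers of fibroblastic reticular cells and pericytes, which are not endothelial, had a lower sum in the double-positive arrays, at 7.93 to 8.16 on the log2 scale against 8.23 to 10.15 for 10 genes, with Des at the floor on all arrays. Limma called 0 of these 10 genes over all probe sets, where 0.225% of all genes were called lower. Of the 5 kept among the brighter probe sets it called 4 as lower, beside 4.34% of all genes kept. These 4 (Acta2, Col1a2, Col3a1 and Pdgfrb) passed that filter through their CD31+ arrays, where they are high. Over all probe sets 5 of the 10 were lower and 0 higher at unadjusted p values under 0.05 in limma, beside 443 and 2612 of all 18193 genes. Of the 2 with the highest signal, the fibrillar collagen gene Col3a1 differed by -3.15, and the pericyte gene Rgs5 by 0.33. The part of these cells in the Aplnr values was not tested, and fewer cells of a type and less RNA per cell cannot be told apart in such samples.

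Apln, which encodes the ligand, was dim. Its probe set read 2.52, 2.52 and 2.49 in the double-positive arrays and 2.52, 3.01 and 3.48 in the CD31+ arrays. The higher values came from CD31+ replicates 2 and 3, and CD31+ replicate 1 lay with the double-positive arrays, so the groups overlapped. The difference was -0.50 (95% confidence interval -1.21 to 0.22, limma adjusted p = 0.659). At values this close to the floor a difference in Apln was not detectable.

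**Figure D1:**
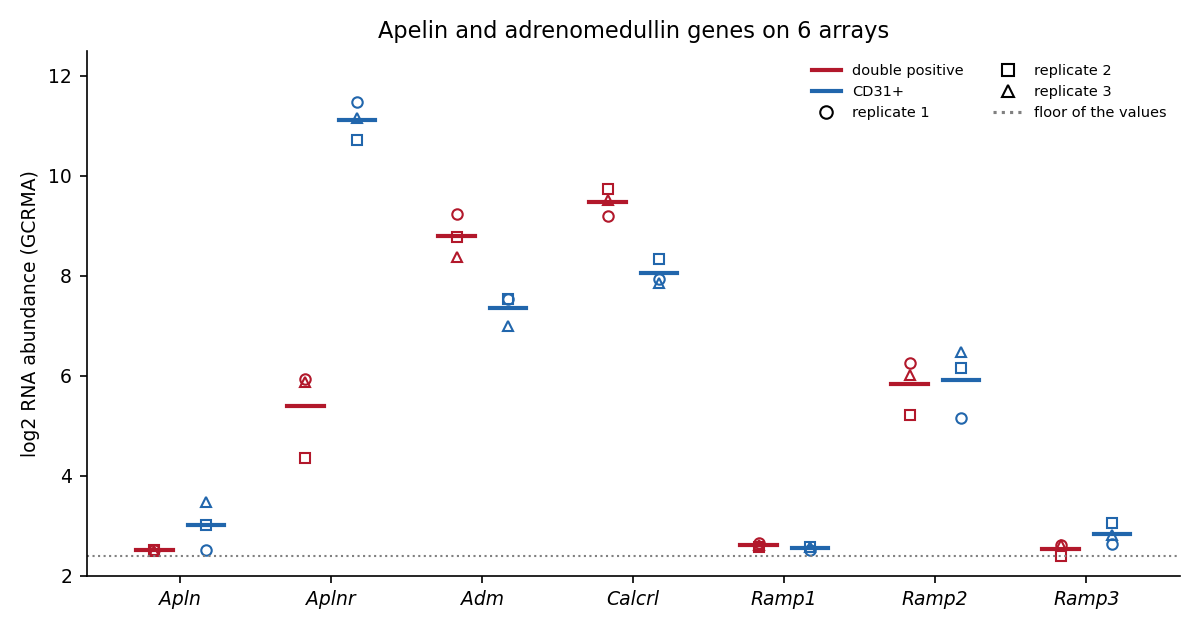
Log2 values (GCRMA) of the 7 genes on each of the 6 arrays, each gene at its brightest probe set; points are arrays, bars are group means of 3 arrays, and the dotted line is the floor at 2.39. Aplnr lies far higher in the CD31+ arrays, Adm and Calcrl lie higher in the double-positive arrays, Ramp2 overlaps, and Apln, Ramp1 and Ramp3 stay near the floor.

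Adm, the gene of the adrenomedullin peptide, was bright at one probe set and dim at the other. At the bright probe set (1447839_x_at) the double-positive arrays had 9.24, 8.77 and 8.37 and the CD31+ arrays had 7.54, 7.54 and 7.0. The groups did not overlap, and CD31+ replicates 1 and 2 had the same value. The means were 8.79 ± 0.437 and 7.36 ± 0.314 (SD, n = 3 arrays each), which differ by 1.43 (SE 0.298, 95% confidence interval 0.63 to 2.23). Limma did not call it over all probe sets (adjusted p = 0.205) and called it among the brighter ones (adjusted p = 0.0116). The letter x in the name of this probe set marks probes that may also match other transcripts, and the platform table gives no accession for it. The other probe set of Adm (1416077_at) lay between 3.21 and 3.43 on all 6 arrays, with a difference of 0.08 (95% confidence interval -0.09 to 0.25). Which of them follows the Adm transcript was not tested.

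Calcrl, the receptor gene, was bright at 1 of its 3 probe sets (1425814_a_at). The double-positive arrays had 9.19, 9.73 and 9.51 and the CD31+ arrays had 7.94, 8.34 and 7.86. All double-positive values lay above all CD31+ values, and replicate 2 was the highest in both groups. The means were 9.48 ± 0.27 and 8.05 ± 0.257 (SD, n = 3 arrays each), which differ by 1.43 (SE 0.206, 95% confidence interval 0.88 to 1.99), or 2.70-fold. The adjusted p from limma was 0.101 over all probe sets and 0.00703 among the brighter ones. The other probe sets of Calcrl stayed at 2.45 to 2.51 and at 2.39 to 2.41 and can show no difference.

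The differences of Adm and Calcrl exceeded the shift of a typical bright probe set, 0.75, which lies within the interval of Adm and below that of Calcrl. Subtracting from each array the median of its bright probe sets left 0.75 for Adm (limma adjusted p = 0.0735 among the brighter probe sets) and 0.75 for Calcrl (limma adjusted p = 0.0944 among them), and neither was called. Aplnr was still called, at -6.40 (limma adjusted p = 4.03e-06). Among the brighter probe sets 36.0% of genes were called higher before centring. After it 24.1% were called, 13.9% as higher and 10.3% as lower, and of the 7 genes 0 were higher and 1 lower. Centring over all probe sets also moves the values at the floor, which then count as lower: 89.7% of all genes were called, 7.81% as higher and 86.0% as lower, and all 7 genes were among the latter, Adm and Calcrl at their dim probe sets while their bright ones were called higher.

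**Figure D2:**
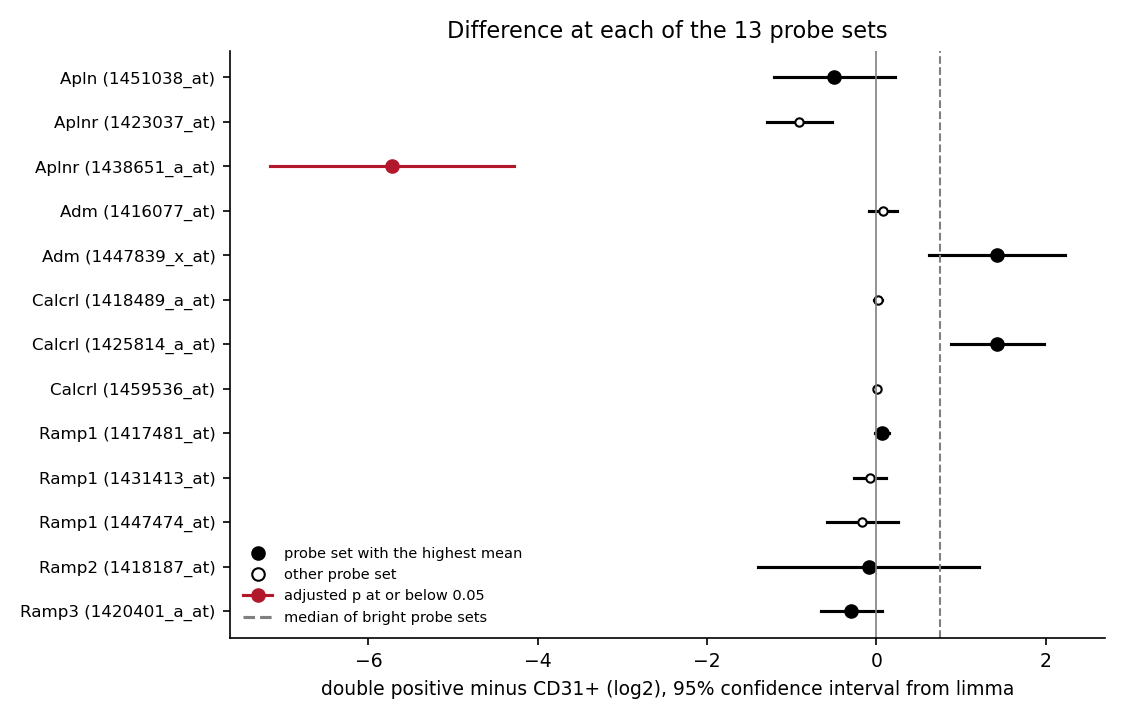
Double-positive minus CD31+ difference (log2) at each of the 13 probe sets, with the 95% confidence interval from limma (3 arrays per group). Filled points are the brightest probe set of each gene, red marks an adjusted p at or below 0.05, and the dashed line is the median difference of the bright probe sets, 0.75, near which the intervals of Adm and Calcrl begin.

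Ramp2, whose product carries the receptor to the cell surface as its adrenomedullin partner, was of middle brightness in both groups. The double-positive arrays had 6.26, 5.22 and 6.02 and the CD31+ arrays had 5.15, 6.15 and 6.48. The groups overlapped, with the lowest value of each group in a different replicate. The difference was -0.09 (SE 0.486, 95% confidence interval -1.40 to 1.22, limma adjusted p = 1), an interval that leaves room for changes of more than 2-fold either way. Its sign turned without double-positive replicate 2, where it was 0.21, without CD31+ replicate 2, where it was 0.02, and without CD31+ replicate 3, where it was 0.19. With centred arrays it was -0.77 (limma adjusted p = 0.248 among the brighter probe sets).

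Ramp3, the alternative adrenomedullin partner, and Ramp1, the CGRP partner, were near the floor. Ramp3 had 2.61, 2.39 and 2.61 in the double-positive arrays and 2.63, 3.05 and 2.82 in the CD31+ arrays. The groups did not overlap, but their nearest values, 2.61 and 2.63, lay close together. The difference was -0.30 (95% confidence interval -0.66 to 0.07, limma adjusted p = 0.659). The brightest probe set of Ramp1 read 2.66, 2.56 and 2.61 in the double-positive arrays and 2.52, 2.56 and 2.56 in the CD31+ arrays. Its other probe sets lay at 2.39 on 5 of 6 arrays and at 2.40 on 5 of 6, each with the highest value, 2.61 and 2.89, on CD31+ replicate 3. No difference in Ramp1 was detectable at these values.

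Counted over genes at their brightest probe sets, 2 of the 7 had all double-positive arrays above all CD31+ arrays (Adm and Calcrl) and 2 had them all below (Aplnr and Ramp3). Of all 18193 genes, 20.3% did not overlap, 16.9% as higher and 3.42% as lower. The median difference of the 7 was -0.09, against 0.0001 over all genes. Among the brighter probe sets, where 4 of the 7 genes were kept (Aplnr, Adm, Calcrl and Ramp2), 2 were called higher and 1 lower, beside 36.0% and 4.34% of all genes kept. With the replicate block the counts were the same, beside 49.2% and 5.25% of all genes kept and 54.5% in either direction. Genes kept by that rule had to be bright on at least 3 arrays, so the count says nothing of Apln, Ramp1 and Ramp3.

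The change of a gene was also set against that of Calcrl on the same array, which removes any scale of the whole array. Relative to Calcrl, Aplnr was lower by 7.16 on the log2 scale in the double-positive than in the CD31+ arrays (difference -7.16), and Ramp2 by 1.52 (difference -1.52). For Ramp2 relative to Calcrl the values of the groups, which overlapped for Ramp2 alone, did not overlap, at -2.94, -4.50 and -3.49 against -2.79, -2.19 and -1.39. Ramp2 itself differed by -0.09 and Calcrl by 1.43, so this ratio mostly carries the difference of Calcrl. With each array left out its p in the exact permutation test was 0.1 to 0.2. The exact permutation test (2-sided) gave p = 0.1 for each of the 5 ratios computed, also after Benjamini-Hochberg adjustment. This is the smallest p that 3 arrays against 3 can give when their pairing is not used, as here. The other ratios (Ramp1 and Ramp3 to Calcrl, Adm to Apln) each hold a gene near the floor. With the mean of all own probe sets in place of the brightest, the Ramp2 ratio was -0.58 (p = 0.4 in the exact permutation test), since the other probe sets of Calcrl lie at the floor.

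**Figure D3:**
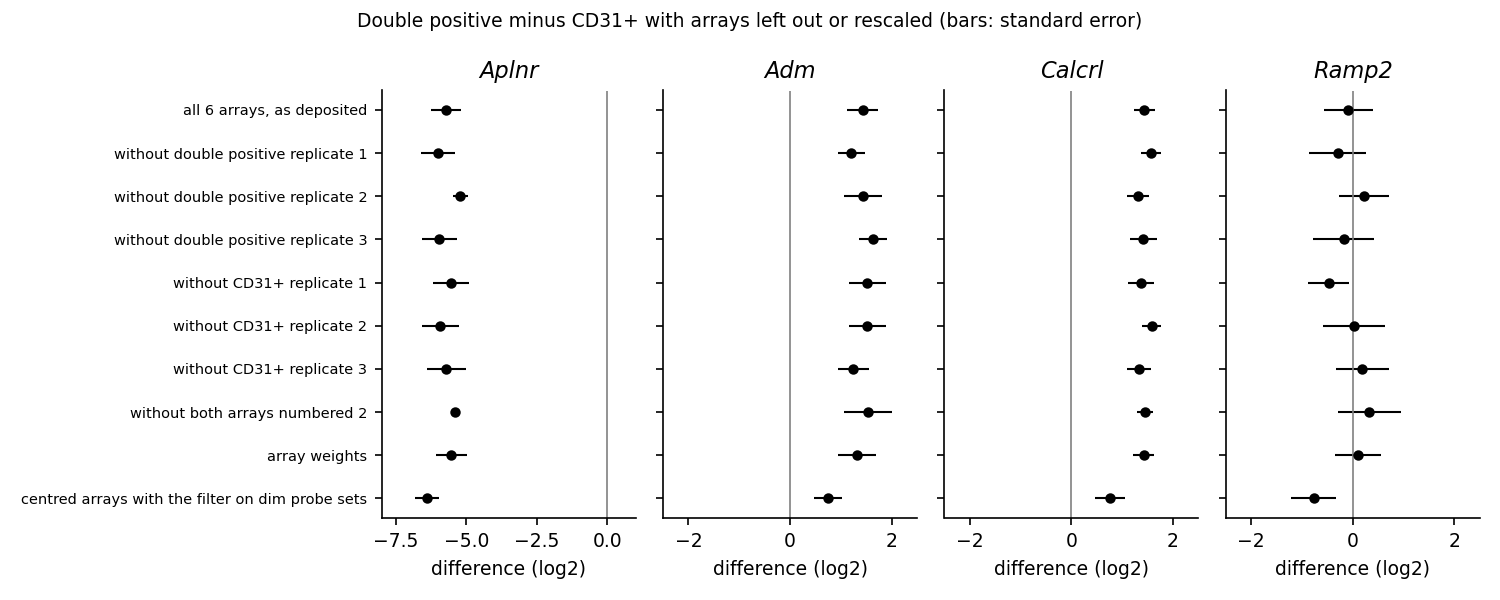
Double-positive minus CD31+ difference (log2, bars are SEs from limma) of the 4 bright genes with all arrays, with arrays left out, with array weights, and with centred arrays among the brighter probe sets. Aplnr stays between -6.40 and -5.21, Adm and Calcrl stay above 0 and fall to 0.75 with centred arrays, and Ramp2 crosses 0; the horizontal axis of Aplnr spans a wider range than the others.

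Of the peptides related to these ligands and the enzymes that process them, 1 of 9 measured genes was called, as higher, and 0 as lower, in the test that called 1.06% of all genes higher and 0.225% lower. Mme, which encodes neprilysin, a membrane protease known to cleave apelin and adrenomedullin, had 6.94, 7.17 and 7.23 in the double-positive arrays and 3.75, 2.63 and 3.33 in the CD31+ arrays. The groups lay far apart, with a difference of 3.88 (SE 0.323, limma adjusted p = 0.0397). A second probe set of Mme stayed between 2.40 and 2.58. Ece1, which encodes an endothelin-converting enzyme, was bright and near equal at 8.26 and 8.28. Most others were near the floor in both groups, among them Apela, the gene of the other apelin receptor ligand, at 2.48 and 2.39, the adrenomedullin relative Adm2 at 2.44 in both, and Pam, which encodes the enzyme that amidates adrenomedullin, at 2.60 and 2.65. Klkb1, the plasma kallikrein gene, lay at 2.47 and 2.45, and the amylin gene Iapp at 2.41 in both at its brightest probe set.

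Of the receptor partners and signalling genes, 2 of 17 measured were called higher and 0 lower, beside the same 1.06% and 0.225% of all genes. Ackr3, which encodes an atypical receptor known for taking up CXCL12 and, in reports on lymphatic growth, adrenomedullin, had 9.92, 10.09 and 9.93 in the double-positive arrays and 6.99, 6.35 and 6.85 in the CD31+ arrays. Every double-positive array lay well above every CD31+ array, with a difference of 3.25 (SE 0.194, limma adjusted p = 0.0232). Arrb2, which encodes a beta-arrestin, was called at 0.57 (limma adjusted p = 0.0476), but its values were dim, at 3.26 and 2.69. Arrb1, the related arrestin gene, differed by 1.28 (limma adjusted p = 0.567).

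Of the genes that make or sense cyclic AMP, the messenger of the adrenomedullin receptor, 0 were called over all probe sets. Adcy7, an adenylyl cyclase gene, had 7.13, 7.11 and 7.07 in the double-positive arrays and 3.26, 5.31 and 3.44 in the CD31+ arrays. CD31+ replicate 2 was the highest of its group and still below the other group, and the difference of 3.10 was not called over all probe sets (limma adjusted p = 0.195) but was among the brighter ones (limma adjusted p = 0.00234). Adcy9, another cyclase gene, differed by 1.80 (limma adjusted p = 0.0548). Rapgef3, which encodes the cyclic AMP sensor EPAC1 of endothelial barriers, had 6.27, 5.23 and 6.53 against 8.19, 8.0 and 7.72. It was lower on every double-positive array, with a difference of -1.96 (limma adjusted p = 0.2), and was called lower among the brighter probe sets (limma adjusted p = 0.00537), also with centred arrays (limma adjusted p = 0.000344). A second probe set of Rapgef3 (1437012_x_at) differed by -1.34 and was called among the brighter ones too (limma adjusted p = 0.0207). This probe set passed the filter through the CD31+ arrays, where it is high, and double-positive replicate 3. Adcy9 and Arrb1 were not kept there. Of the 9 genes of the list that were kept, 3 were called higher, beside 36.0% of all genes kept. They were Ackr3, Adcy7 and Gnas, the gene of the stimulatory G protein.

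Of 14 genes known to be induced by hypoxia, as Adm is, 1 was called higher and 0 lower, again beside 1.06% and 0.225% of all genes. Ndrg1, a gene of the stress response, was called at its second brightest probe set, by 1.13 (SE 0.0934, limma adjusted p = 0.0397), and not at its brightest, at 1.42 (limma adjusted p = 0.325). Among the brighter probe sets 5 of the 9 genes kept were called higher (Kdm3a, Ldha, Ndrg1, Pgk1 and Vegfa), where 36.0% of all genes kept were. Kdm3a and Vegfa passed the filter only through the double-positive arrays, where they are high. With centred arrays 0 were higher and 1, Pdk1, was lower (difference of -0.54 before centring). Vegfa, the growth factor of blood vessels, differed by 1.38, the glycolysis gene Ldha by 0.88, Pgk1 of the same pathway by 1.32 at one probe set and by 1.07 at its brightest, and the histone demethylase gene Kdm3a by 0.93. Egln3, an oxygen sensor gene, had 3.32 and 2.81. The median difference of the 14 genes at their brightest probe sets was 0.33.

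**Figure D4:**
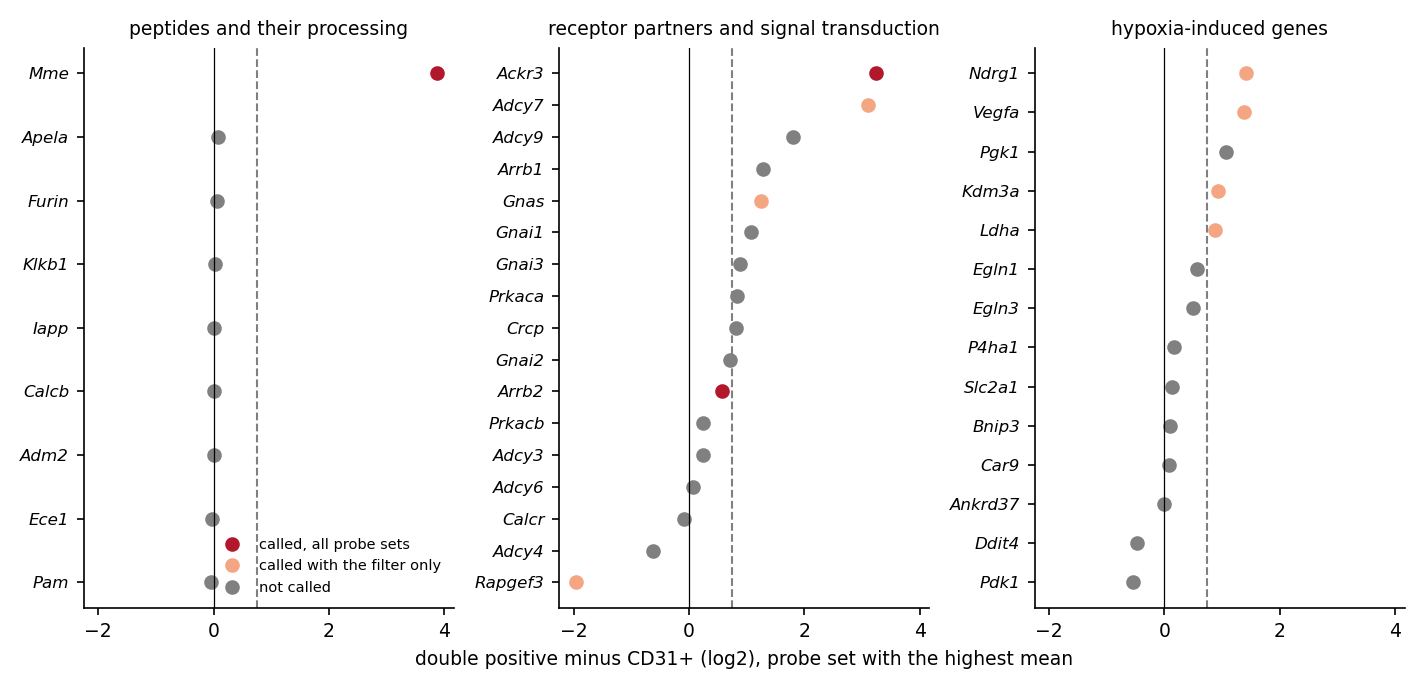
Double-positive minus CD31+ difference (log2, 3 arrays per group) of the measured genes of the 3 lists, each at its brightest probe set; the dashed line is the median difference of the bright probe sets, 0.75. Red points were called by limma at 5% FDR over all probe sets (Mme, Ackr3 and Arrb2), orange points among the brighter probe sets only, and Ndrg1 was called over all probe sets at another probe set than the one drawn.

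Over the 3 lists together limma called 4 genes higher and 0 lower, against 1.06% and 0.225% of all genes. The count of higher genes was 0 with the replicate block, 3 without CD31+ replicate 2 and 0 without any other array left out in turn. Among the brighter probe sets 2, 9 and 9 genes of the 3 lists were kept. There 9 were called higher and 1 lower, beside 36.0% and 4.34% of all genes kept. With centred arrays 3 were higher (Mme, Ackr3 and Adcy7) and 2 lower (Rapgef3 and Pdk1), beside 13.9% and 10.3%. Mme, Kdm3a and Vegfa passed that filter only through the double-positive arrays, where they are high. Adcy7 passed it through those arrays and CD31+ replicate 2. Beside these counts, high endothelial venule genes had overlapping sums, at 12.88 to 13.66 on the log2 scale in the double-positive and 12.28 to 14.96 in the CD31+ arrays. Glycam1, a ligand of L-selectin, was bright in both at 13.18 and 13.98. Of the 6 genes limma called 0 over all probe sets. At unadjusted p values under 0.05, 2 were lower and 0 higher, beside 443 and 2612 of all 18193 genes. The 2 were Ackr1, an atypical chemokine receptor gene (difference -2.14), and Selp, the P-selectin gene (difference -1.31). Of the 4 genes of this list among the brighter probe sets, these 2 were called lower, beside 4.34% of all genes kept. With centring they were called lower too, beside 10.3%. Ackr1 passed that filter only through the CD31+ arrays, where it is high. The median difference of the 6 genes was -0.83. Hematopoietic markers were low, with 4 of 10 at the floor on every array (Cd3e, Cd3g, Cd79a and Itgax) and sums of 5.90 to 5.94 and 5.93 to 6.34. Ptprc, which encodes CD45, had means of 2.67 and 3.72, and Lyz2, a myeloid gene, 3.00 and 2.99.

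The genes with the profile most like that of each bright member were sought among the 3984 genes with a bright probe set, by the root mean square difference of values centred on their own means over the 6 arrays. For Aplnr these were Jam2, a junctional adhesion gene (0.586), Cxcl12, a chemokine gene (0.61), and Abcb1a, a drug efflux transporter gene (0.75), which differed by -4.97, -5.29 and -5.28. For Calcrl they were Aff4, a transcription elongation gene (0.0479), Wdr26 (0.0875) and Jmjd1c (0.146), with differences of 1.49, 1.29 and 1.25. For Adm they were Pcbd2 (0.104), the proteasome subunit gene Psma3 (0.106) and Lmo2, a gene of endothelial and blood cell transcription (0.121), with differences of 1.32, 1.54 and 1.53. For Ramp2 they were Macroh2a1, a histone variant gene (0.22), Rdh10, of retinoid metabolism (0.241), and Sptlc1, of sphingolipid synthesis (0.245), with differences of 0.18, -0.34 and -0.11. All 6 values share the same arrays and their scale. With Pearson correlation in place of this measure, 0 of the 3 were shared for Aplnr and for Adm, and 2 of the 3 for Calcrl and for Ramp2.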

How the data were processed

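RNA (20 ng per sample) was amplified in 2 rounds, labelled and hybridized to GeneChip Mouse Genome arrays by the authors. The deposited values are log2 RNA abundances normalized by the authors with GCRMA, 1 per probe set and array. Versions of GCRMA are not given in the sources used here, and raw intensities were not used. Of 45101 probe sets, 64 controls were left out. Of the others, 34945 have 1 gene in the platform table, 932 several and 9160 none, and current symbols came from RefSeq for 34741.

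Arrays were grouped by the gate word of their labels. For each difference, limma 3.58.1 was run under R 4.3.3, with lmFit and eBayes, on all 45037 probe sets with Benjamini-Hochberg adjustment at 5% FDR, with no filter and no block. The study's methods name limma and this FDR. A gene was called when any own probe set passed. GCRMA draws dim probe sets to a floor, and the prior degrees of freedom of eBayes were 0.356 with all of them and 4.92 with the 6088 brighter ones, so both tests are given. The test was checked on simulated data. The number of arrays limits the precision.

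The members and lists were chosen with earlier results of these data known. Named genes were all members at every probe set, up to 6 genes with the smallest adjusted p of each of the 3 pathway lists, the 3 genes most like each bright member, and the 2 brightest markers of each cell type list. Ece1 at its brightest probe set, Adm2, Pdk1, Prox1, Kdr and the genes counted as called were named after their values were seen. Some listed genes were not analysed here.

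The series' design text calls the samples paired. Deviations from the group means correlated at 0.341 to 0.475 between arrays of the same number and at -0.405 to 0.0566 between arrays of different numbers. The numbers were therefore taken as pairs in the replicate block. The main fit and the exact permutation test did not use the pairs. Alternatives were the replicate block, the filter to the brighter probe sets, centred arrays, eBayes with trend and robust, array weights, probe sets averaged or 1 per gene, a minimum difference of 1, and each array left out. Leaving out both arrays numbered 2 was added after the data were seen. Figures used matplotlib 3.10.9 in Python 3.11.15.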

Additional observations from a re-analysis of the deposited data

How the results depend on the processing

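Limma called 0 of the 7 genes higher and 1 lower over all probe sets. Among the brighter probe sets 2 were called higher and 1 lower, also with the replicate block added; over all probe sets 2 were higher and 7 lower with centred arrays, and 1 was higher with probe sets averaged per gene. The lower count was 0 with the replicate block, with array weights and without both arrays numbered 2, and 0 to 1 with each array left out. Of the 3 lists, 4 genes were called higher and 0 lower. The higher count was 0 with the replicate block, 9 with the filter, 11 with filter and block, 9 with centred arrays, 2 with trend and robust, 0 without both arrays numbered 2, and 0 to 3 with each array left out. The lower count was 1 with the filter, 1 with filter and block, 33 with centred arrays, 2 with centred arrays and the filter, and 0 with each array left out.

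Of all genes 193 were called higher. That count was 4 with the replicate block, 1518 with the filter, 2074 with filter and block, 1420 with centred arrays, 585 with centred arrays and the filter, 127 with trend and robust, 26 without both arrays numbered 2, 407 with probe sets averaged, 402 with 1 probe set per gene, and 36 to 103 with each array left out. The 41 lower calls became 0, 183, 221, 15638 and 434 under the first 5 of these settings, 13 without both arrays numbered 2, 83 with probe sets averaged, 76 with 1 probe set per gene, and 5 to 61 with each array left out.

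Aplnr was not called with the replicate block (-5.72), with array weights (-5.53, limma adjusted p = 0.0551) or without both arrays numbered 2 (-5.40, limma adjusted p = 0.0894), and ranged from -6.00 to -5.21 with each array left out. Adm was newly called at 1.43 with the filter and with filter and block, and at 0.75 with centred arrays, and ranged from 1.20 to 1.64 with each array left out. Calcrl was newly called at 1.43 with the filter and with filter and block, and at 0.75 with centred arrays, and ranged from 1.31 to 1.58. With centred arrays and the filter neither was called (limma adjusted p = 0.0735 for Adm and 0.0944 for Calcrl). With centred arrays over all probe sets Apln (-1.17), Ramp2 (-0.77) and Ramp3 (-0.97) were called lower, and the sign turned for Ramp1 (-0.61) and for the dim probe sets of Adm (-0.60) and Calcrl (-0.66 and -0.67). Ramp2 also turned with array weights (0.10) and without both arrays numbered 2 (0.33), and ranged from -0.48 to 0.21 with each array left out. With each array left out Apln ranged from -0.74 to -0.26, Ramp1 from 0.04 to 0.09 and Ramp3 from -0.40 to -0.19, and a dim probe set of Ramp1 went from -0.25 to 0.0001. The genes most like Aplnr and Adm shared 0 of 3 names between the measures of likeness. The cause of these changes was not tested. Centring subtracts each array's median from all its values, those at the floor included. The replicate block changed no other call of the 7 genes over all probe sets.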
